A study of Homo sapiens with 4 samples.

Results

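MTF-1, the zinc finger factor that senses metals, was bound at 4952 distal intergenic sites in untreated MDA-MB-231 cells that had no overlapping peak in cells kept in cadmium. These sites were selected on the 2 deposited peak lists and on gene annotation. Each was a control peak that shared no base with a cadmium peak, and its centre lay more than 3 kb and at most 100 kb from the nearest GENCODE v44 transcript start on hg38, outside every annotated gene body, on chromosomes 1 to 22 or X. They made up 25.6% of the 19362 control peaks lost on those chromosomes and 7.15% of all 69283 control peaks there. In the text they are called lost peaks. The overlap, the distance and, through the overlap, the peak width were part of the selection, so shares by these measures are descriptions and carry no test.

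The MDA-MB-231 line is a long-established human line from breast cancer. Of the 4 MTF-1 libraries, 2 came from control cells passaged in normal medium without added cadmium, and 2 came from cells that were maintained long term in 10 µM cadmium. The labels name no genetic change in either line, and each condition was 1 cultured line. In CUT&RUN, an antibody directs a nuclease to the DNA around a bound protein, and the released fragments are sequenced. The authors merged the libraries of a condition before peak calling, so each condition was represented by 1 list with peak positions only. The lists carried no read count, height or score. The depth per library was therefore unknown, the spread of replicates was not measured, and each test below describes the peaks of these lists and not replicates of a condition.

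MTF-1 is known for switching on metallothioneins and zinc exporters through the metal response element, a short DNA motif in their promoters. AP-1 is the family of FOS and JUN dimers, which occupies many distal enhancers and responds to stress. Forkhead factors are a large family of winged-helix proteins, several of which bind enhancers before other factors do. TEAD proteins are the DNA-binding partners of the YAP and TAZ co-activators. A distal intergenic peak of such a factor is a candidate regulatory element whose target gene is not given by its position, and the nearest gene is used below only as an address.

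The sequences of a few lost peaks show what the motif searches found. All are the 300 bases around the centre of a peak, read from hg38 5′ to 3′ on the plus strand. Where a peak is narrower, they run past its edges, and so do the central 500 bp used below. Lower case is sequence outside the motif, and capitals mark each match on either strand. The first pair held the most AP-1 strings, TGACTCA or its reverse complement TGAGTCA, with 3 matches each. The first of them lay in a short tandem unit, and the second had its matches spread over the window. Peaks with at least 50% of their 31-base strings repeated elsewhere in the genome, and those with a CA repeat, were passed over for this choice.
Lost peak near SERINC2, chr1:31471550-31471849, plus strand: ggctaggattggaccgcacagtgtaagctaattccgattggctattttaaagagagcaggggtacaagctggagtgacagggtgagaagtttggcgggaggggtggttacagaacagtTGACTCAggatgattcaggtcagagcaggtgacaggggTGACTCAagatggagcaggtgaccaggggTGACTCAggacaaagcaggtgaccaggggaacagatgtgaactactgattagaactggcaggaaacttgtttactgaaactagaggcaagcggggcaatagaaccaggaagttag
Lost peak near MRO, chr18:50847250-50847549, plus strand: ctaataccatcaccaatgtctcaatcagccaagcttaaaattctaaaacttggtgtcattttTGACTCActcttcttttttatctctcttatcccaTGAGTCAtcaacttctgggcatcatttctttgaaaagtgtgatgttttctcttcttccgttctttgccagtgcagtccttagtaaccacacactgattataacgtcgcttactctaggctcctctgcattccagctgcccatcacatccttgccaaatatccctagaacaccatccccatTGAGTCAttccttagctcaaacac
The peak near SERINC2 was 199 bp wide with its nearest cadmium peak 26201 bp away, and the peak near MRO was 399 bp wide with its nearest cadmium peak 6201 bp away.

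Forkhead strings were searched on both strands, first as GTAAACA, then as GTAAATA, next as ATAAACA and last as ATAAATA, and these can overlap each other in ATAA repeats. The lost peaks with the most matches, 11 each, were of that kind. All capitals in the next sequence form a single tract of TATT units, which read ATAA on the other strand, so its count of matches comes from a simple repeat.
Lost peak near ALDH1A1, chr9:73109450-73109749, plus strand: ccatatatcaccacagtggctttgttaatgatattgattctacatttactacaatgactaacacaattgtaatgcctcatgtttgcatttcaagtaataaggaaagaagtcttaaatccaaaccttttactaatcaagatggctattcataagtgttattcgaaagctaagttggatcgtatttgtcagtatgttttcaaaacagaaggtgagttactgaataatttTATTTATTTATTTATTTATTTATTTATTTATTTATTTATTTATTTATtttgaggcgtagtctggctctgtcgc
The pair below was chosen after the values had been seen, because GTAAACA had the largest odds ratios of the forkhead strings against retained and gained peaks. They held the most GTAAACA strings, 2 each, and only this string is in capitals. Ties in the count were settled by the match nearest to the peak centre.
Lost peak near LUZP4, chrX:115372250-115372549, plus strand: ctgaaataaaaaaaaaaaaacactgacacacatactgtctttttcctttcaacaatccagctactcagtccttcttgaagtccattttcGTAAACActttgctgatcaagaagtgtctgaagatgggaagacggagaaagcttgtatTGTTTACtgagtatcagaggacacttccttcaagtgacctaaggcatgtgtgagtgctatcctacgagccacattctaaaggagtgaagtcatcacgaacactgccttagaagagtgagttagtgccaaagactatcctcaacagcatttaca
Lost peak near PTH2R, chr2:208872550-208872849, plus strand: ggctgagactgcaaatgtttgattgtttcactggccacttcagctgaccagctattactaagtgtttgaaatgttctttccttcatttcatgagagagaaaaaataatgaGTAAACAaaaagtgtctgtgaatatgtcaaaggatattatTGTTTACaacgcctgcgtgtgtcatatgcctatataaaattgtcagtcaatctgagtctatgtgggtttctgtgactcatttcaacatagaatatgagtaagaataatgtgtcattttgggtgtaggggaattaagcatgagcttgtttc
The peak near LUZP4 was 399 bp wide, and the match nearest to its centre was 0.5 bp away. The peak near PTH2R was 599 bp wide with a match 3.5 bp from the centre, and its nearest cadmium peak was 461401 bp away.

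The metal response element core was searched as TGCACNC and TGCGCNC on both strands. Chosen in the same way, the lost peaks with the most matches had 10, near MRPL36, and 8, near INPP5A. Many of these matches were TGCACAC in stretches rich in CA units, so matches of this core can lie in simple repeats.

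Distal intergenic control peaks were lost more often than control peaks near starts and somewhat less often than distal peaks inside genes. Of 15198 control peaks that met the same position rule, 32.6% were lost (95% Wilson interval 31.8 to 33.3), against 27.9% of all control peaks. The share was 16.7% of 26710 control peaks within 3 kb of a start and 35.8% of 26023 distal peaks inside genes. Intergenic peaks more than 100 kb from any start had the highest share, with 47.4% of 1352 lost. Intervals of shares cover counting error only. In the other direction, 2636 of 13075 distal intergenic cadmium peaks had no control peak, a share of 20.2%. These gained peaks and the 10246 retained distal intergenic control peaks are the comparison sets below.

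Lost peaks were narrower than retained peaks and poorer in GC than retained or gained peaks. Their width had a median of 999 bp (quartiles 599 and 1599 bp) against 1199 bp in retained and 599 bp in gained peaks. Lost distal peaks inside genes were also narrow, with a median of 799 bp. Of the control peaks of 199 bp, the smallest in the list, 55% were lost, and the share was 19.9% among those of 3199 bp or more. A narrow peak also has fewer bases with which to meet a cadmium peak. The share lost was 27.9% at 3 to 10 kb from the nearest start, 32.1% at 10 to 30 kb and 39.96% at 30 to 100 kb, while the median width of lost peaks was 999, 999 and 799 bp in these zones.

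GC content was not part of the selection. The mean over the central 500 bp was 44.3% in lost, 47.6% in retained and 48.5% in gained peaks. Low GC was not particular to intergenic losses, since the mean was 43.7% in lost distal peaks inside genes. The median was 43.6% in lost peaks, above the 39.8% of intergenic 500 bp windows laid on a grid under the same position rule. In a linear fit with log2 width as covariate, lost peaks were lower than retained peaks by -2.71 percentage points (95% interval -3.01 to -2.40, n = 4952 and 10246 peaks, p = 5.39e-69) and lower than gained peaks by -5.30 points (-5.74 to -4.86, n = 2636 gained peaks, p = 4.57e-122). The share lost was 51.1% of peaks with a GC content of 30 to 35% and 15.3% of those at 60% or above. Within the peaks of up to 799 bp it ran from 57.2% below 40% GC to 26.6% at 50% GC or above, and within the peaks of 1799 bp or more from 28.9% to 21.6%. The gradient along GC was thus present at each width and steeper in narrow peaks. GC content affects the yield of sequencing libraries, and a difference between libraries in this respect was not tested.

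**Figure D1:**
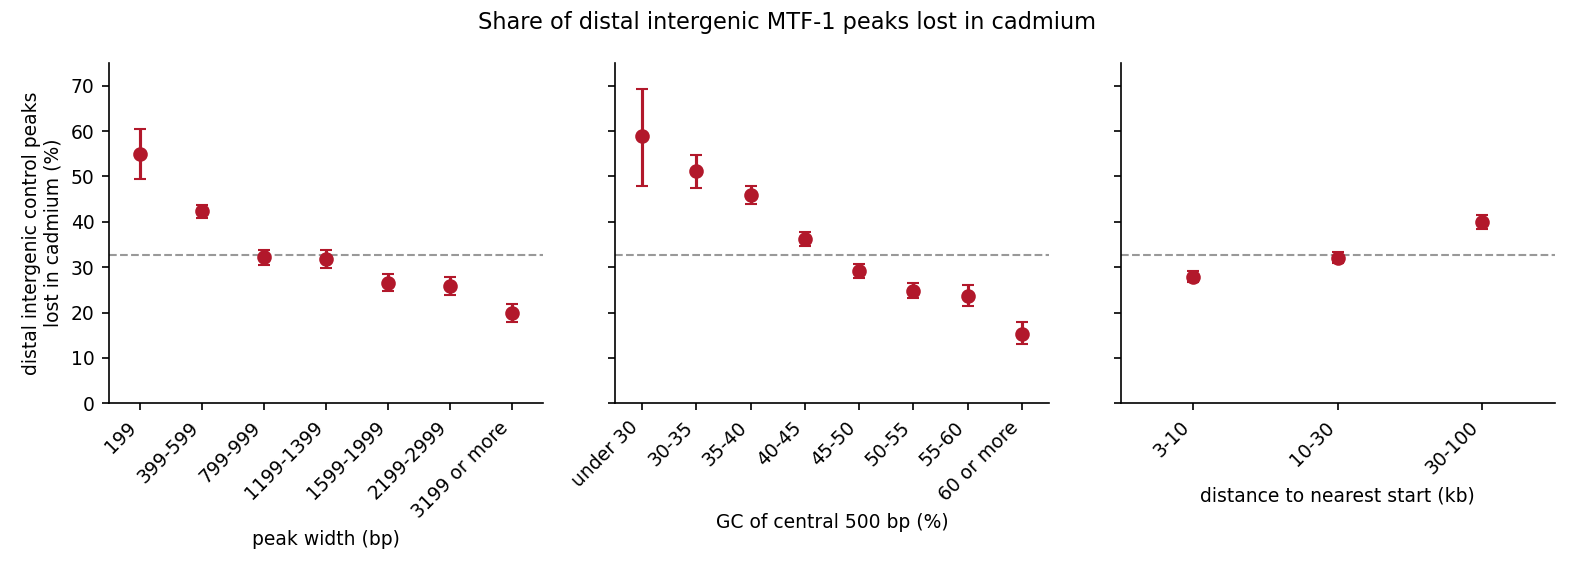
Percentage of distal intergenic control peaks lost in cadmium (y axis) by peak width in bp, GC content of the central 500 bp in % and distance to the nearest transcript start in kb, with 95% Wilson intervals and a dashed line at the 32.6% of all such peaks. The share was 55% for 199 bp peaks and 19.9% for those of 3199 bp or more, and it rose with distance from 27.9% to 39.96%.

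Lost peaks ranged from the edge of a cadmium peak to far from any. The gap to the nearest one had a median of 11201 bp (quartiles 4001 and 32401 bp), 46.8% of lost peaks had one within 10000 bp, 36.2% had none within 20000 bp and 394 had none within 100000 bp. Only 39 were within 601 bp, about the distance over which the peak caller joins bins. At the edge of the selection, 3 lost peaks ended 1 bp from a cadmium peak, while 446 retained peaks were covered for 199 bp, the smallest overlap found. The lost peak nearest to a start was 3002 bp away and the farthest 99855 bp, and the lost intergenic peaks just outside these limits were at 2987 and 100018 bp. Of the retained peaks, 2930 had less than 50% of their bases covered by cadmium peaks.

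Losses were unevenly spread over chromosomes. Chromosome 4 had the highest share, with 46.2% of 883 distal intergenic control peaks lost, followed by chromosome 11 with 42.1% of 770. Chromosomes 16, 22 and 19 had the lowest shares, 15.7% of 300, 17.4% of 288 and 20.2% of 420. When each peak was given the share lost in its stratum of width and GC, the expected shares were 37.4% on chromosome 4, 29.2% on chromosome 11 and 28.6% on chromosome 16. Observed over expected was 1.44 on chromosome 11, 1.27 on chromosome 7, 1.26 on chromosome 14 and 1.24 on chromosome 4, and 0.548 on chromosome 16. Chromosomes 1 and 11 had nearly the same median GC content, 46.6% and 46.8%, and lost 27.4% and 42.1%. Across the 23 chromosomes the share lost correlated with that of all other control peaks (Pearson r = 0.9546, Spearman rho = 0.937) and with median GC content (r = -0.763, rho = -0.678), as a description over chromosomes that share both lists. The DNA copy number of the lines was not analysed here, and its part in these shares was not tested.

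**Figure D2:**
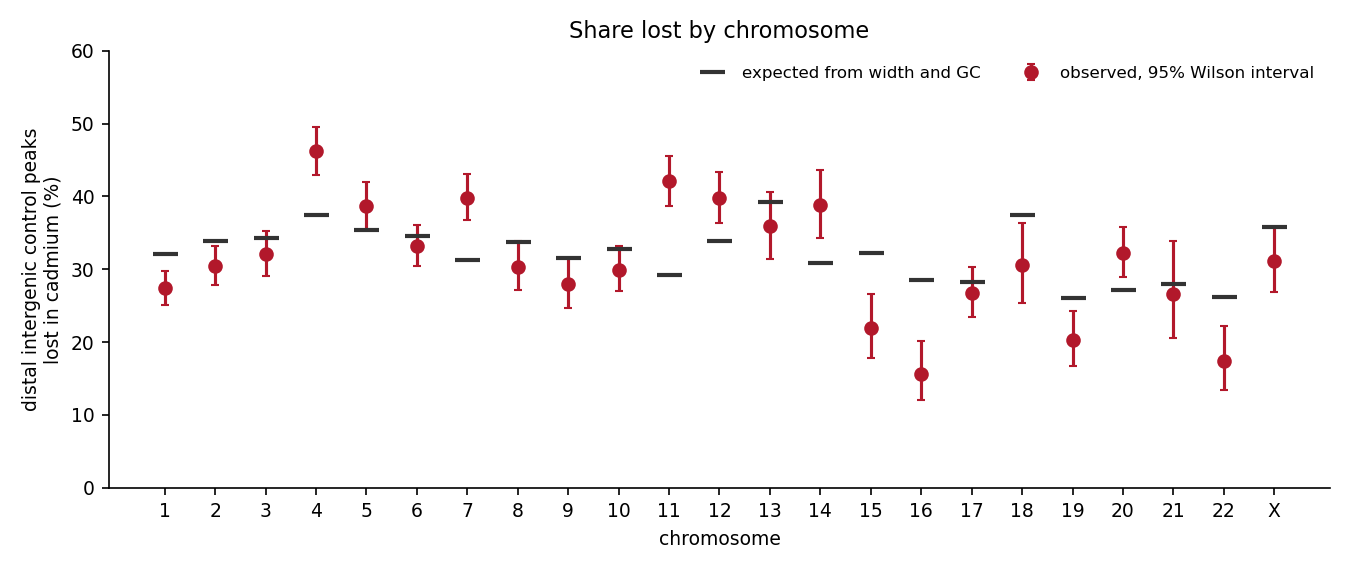
Percentage of distal intergenic control peaks lost on each chromosome (points, 95% Wilson intervals) and the percentage expected from the width and GC content of its peaks (bars). Chromosomes 4 and 11 lay above their expected shares of 37.4% and 29.2%, and chromosome 16 below its 28.6%.

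Lost peaks had a lost nearest neighbour more often than retained peaks did, although for most of them the nearest neighbour was not lost. The nearest control peak of any kind was itself lost for 38.4% of lost peaks (37.1 to 39.8) and for 23.5% of retained peaks (22.7 to 24.4). The difference was also present with a neighbour more than 20 kb away, where the shares were 40.7% and 29.9%. Lost peaks were also more isolated, with a median of 6601 bp to the nearest control peak against 4601 bp for retained peaks. A gained peak lay within 50 kb of 23.5% of lost and 40.6% of retained peaks. Both shares depend on how densely peaks lie. Joined at the gap commonly used to stitch enhancers into super-enhancers, lost peaks formed 4149 clusters. Of these, 85.2% were single peaks and 48 held 4 or more, while 71.5% of the 7045 clusters of retained peaks were single. The retained set was larger, 10246 against 4952 peaks, and the share of single clusters also depends on how densely peaks lie.

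The longest run of successive control peaks that were all lost distal intergenic peaks had 8 members. It spanned chr13:73096001-73274199, downstream of KLF5, which encodes a Krüppel-like zinc finger factor of epithelial cells, and held no cadmium peak. There were 5 runs of 7. Those ranked next lay at chr4:72767801-72951999, between ADAMTS3 and COX18, again with no cadmium peak inside, and at chr14:46572001-49506599, a stretch of 2934599 bp with 2 cadmium peaks. The other 3, near TFEC, between SCPEP1 and AKAP1, and near CDKN3, held no cadmium peak. The cluster with the most members held 6 lost peaks over 32199 bp at chr14:54336201-54368399, near CDKN3, a phosphatase of the cell cycle kinases.

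Width was extreme in a few. The widest lost peak spanned 10799 bp at chr21:10648201-10658999, nearest among coding genes to TPTE, with 13.0% of the 31-base strings of its central window repeated elsewhere. A peak of 10399 bp at chr6:41755601-41765999 near PGC, the gene of a gastric protease precursor, ended 601 bp from a cadmium peak. The next widest were 8999 bp at chr11:102286401-102295399 near BIRC3, an inhibitor of apoptosis, 8599 bp at chr6:37801001-37809599 near ZFAND3, and 8199 bp at chr20:31647401-31655599 near COX4I2. The latter pair had 47.2% and 58.5% of their central 31-base strings repeated.

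Some developmental and cancer genes had many lost peaks around them. By nearest coding start, 6011 protein-coding genes were addressed by a distal intergenic control peak, 47.6% of them (2860) by at least 1 lost peak, and 17.4% (1045) had lost every such peak. Most of the genes with a lost peak, 1825, had exactly 1, and 144 had 5 or more. DEFB115 came first with 21 of 32 peaks lost, but its members lay up to 2744 kb away beside the centromere of chromosome 20 and had a median of 50.9% of 31-base strings repeated. OR11H1 (11 of 16) and TPTE (11 of 30) were like it, with 46.0% and 57.0%. In these places the genome has near-identical copies, so the position of reads is uncertain. The members at the other genes named next had a median of 0% repeated.

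Among the other leading genes, SHH, a secreted morphogen, had 14 of 23 peaks lost, from 19.2 to 336 kb away and with a median width of 3099 bp. FAT1, an atypical cadherin, had 13 of 20, from 38.8 to 607 kb away. ZNF217, a zinc finger gene amplified in some breast cancers, had 12 of 17, within chr20:53635201-53795599, between 26.9 and 185 kb from its start. TENM3, a cell adhesion gene of neurons, had 12 of 18, all more than 377 kb away. SOX9, a factor of chondrocytes and epithelial stem cells, had 11 of 19, from 113 to 903 kb away. IGFBP3, which binds insulin-like growth factors, had 11 of 24, from 168 to 670 kb away. At BMP4, a ligand of the TGF-beta superfamily, 10 of 14 were lost. These 10 had widths of 199 to 2799 bp, 5 on each side of the gene, and the nearest was 8.68 kb from its start. KLF5 had 9 of 12. A gene with more control peaks had more chances to have a lost one, and the mean was 2.53 peaks a gene.

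**Figure D3:**
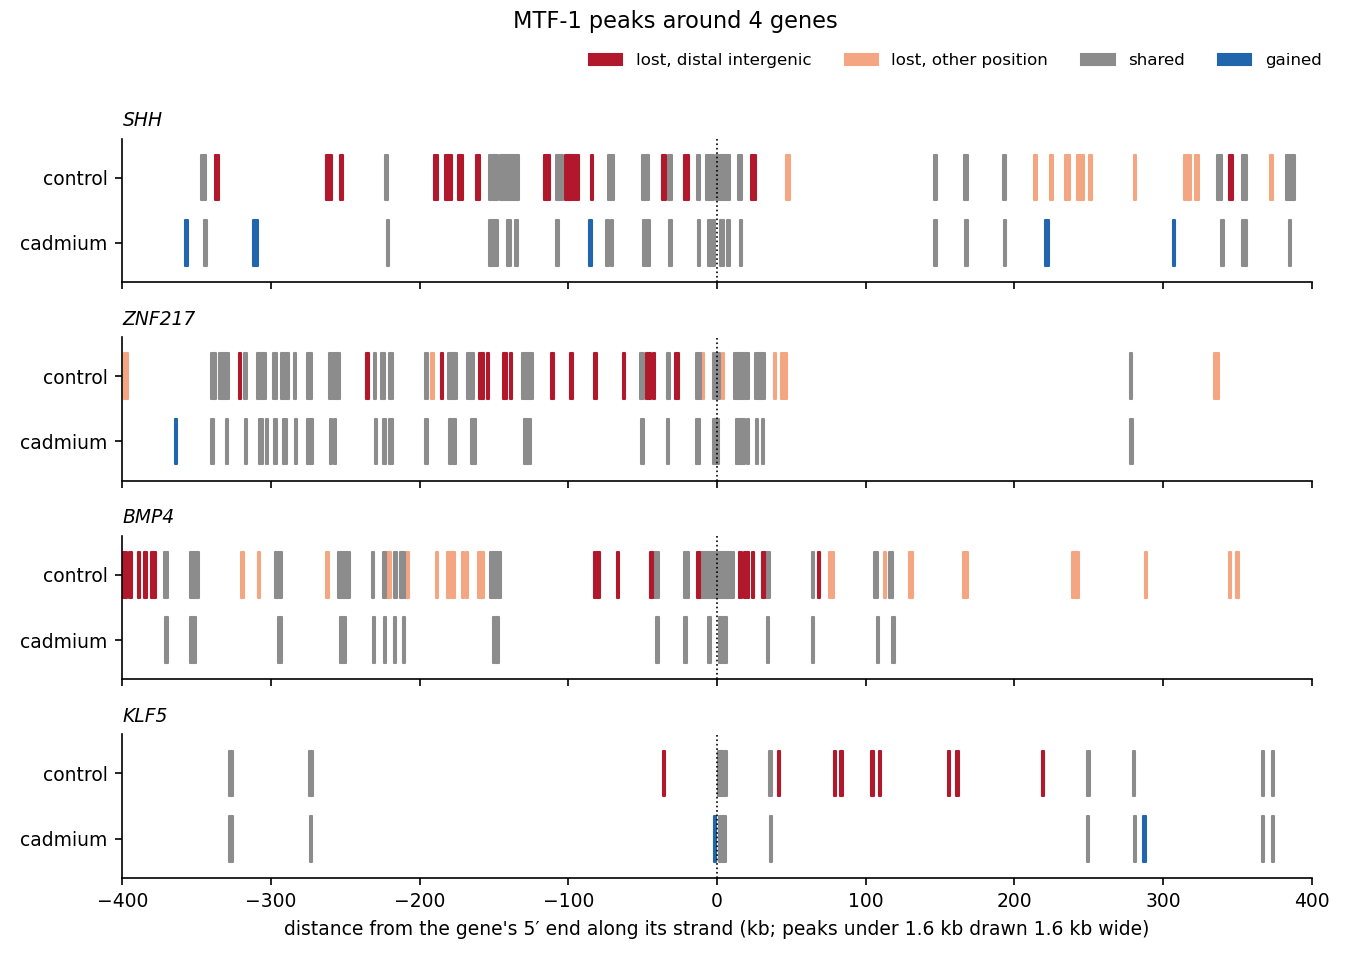
MTF-1 peaks in control (upper row) and cadmium (lower row) within 400 kb of the 5′ ends of SHH, ZNF217, BMP4 and KLF5, with the distance along the gene's strand in kb on the x axis. Lost distal intergenic peaks (dark red) lay among shared peaks (grey) at SHH and ZNF217 and formed a stretch of their own downstream of KLF5, and few gained peaks (blue) were present.

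Of the 1045 genes that had lost all of their distal intergenic peaks, 60 had 3 or more such peaks. In the other direction, 3151 genes had only retained peaks, and 109 of the 807 genes with 5 or more peaks retained all of them. SPTSSB, a subunit regulator of sphingolipid synthesis, and TFEC, a helix-loop-helix factor, each lost 8 of 8. At B3GAT1, CCL28, KIF21A, MNX1 and TMEM106B the count was 6 of 6. These genes were ranked after their values had been seen. A gained peak had MNX1 as its nearest coding gene, and none had the other 6.

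Gene lists gave a range around the background of 47.6%. Of 28 TGF-beta and BMP genes addressed by a distal intergenic control peak, 82.1% (23) had a lost peak, but they also had many peaks, 136 in all, of which 41.9% (57) were lost against 32.6% of all such peaks. BMP4 led the list, followed by ACVR2A, an activin receptor, with 6 of 10 lost, and INHBB, an activin subunit, with 6 of 17. Of 43 growth factor and receptor kinase genes, 65.1% had a lost peak, with 33.5% of their 167 peaks lost. The examples with the most were VEGFC, a lymphatic growth factor, with 5 of 8, HGF with 4 of 4, EPHA4 with 4 of 5 and PDGFC with 4 of 11. Among SOX, TBX and homeobox regulators it was 32 of 56 genes (57.1%), with SOX9 first, SOX2 next with 6 of 9 and TBX18 with 5 of 8.

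Lists for metal handling and for AP-1 itself were small. Of 8 metallothionein and zinc transporter genes with such a peak, 4 had a lost one, led by SLC39A10, a zinc importer, with 3 of 7, and 28.6% of their 21 peaks were lost. For iron, copper and oxidative stress it was 5 of 8 genes and 7 of 24 peaks, with SLC7A11, the cystine transporter, at 2 of 3. For the AP-1 family it was 5 of 8 genes and 6 of 25 peaks. The forkhead family had 17 of 32 genes and 49 of 139 peaks (35.3%), led by FOXL1 with 9 of 21 and FOXA2 with 8 of 14.

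By the percentage of genes with a lost peak, matrix genes and ribosomal protein genes were the lowest of the lists. Of 53 collagen, laminin and matrix protease genes, 34.0% had a lost peak, and 24.3% of 140 peaks were lost, with ADAMTS15 at 8 of 15. Cytosolic ribosomal protein genes had 5 of 20 (25%), and their leading member RPS29 (5 of 6) and RPL10L (2 of 2) together make up the run of 7 on chromosome 14 described above. Cadherins and integrins had 11 of 21 genes, with CDH6 losing 5 of 5. Cytokines and chemokines had 19 of 40, with CCL28, a mucosal chemokine, losing 6 of 6. Olfactory receptors, genes with no known part in this tissue, had 13 of 29 genes (44.8%) and 41.9% of 62 peaks lost, 11 of the 26 from OR11H1. The lists were read as counts only.

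AP-1 strings gathered at the centres of lost peaks, but a smaller share of lost than of retained or gained peaks held one. The string was in the central 500 bp of 26.1% of lost peaks (1290 of 4952), 30.7% of retained and 34.8% of gained peaks. It occurred in 7.75% of 166928 intergenic 500 bp windows laid on a grid under the same position rule, and in 8.26% of those at the GC content of lost peaks. Within 100 bp of the centre, matches in lost peaks were 2.497 times as dense as in the flanks. The ratio was 2.32 in retained and 3.95 in gained peaks. With width and GC content as covariates, the odds of a match were 0.604 times those of retained peaks (95% interval 0.555 to 0.656, n = 4952 and 10246 peaks, adjusted p = 2.37e-31, logistic regression with Benjamini-Hochberg adjustment over 18 fits). The odds were also lower than in gained peaks, with a ratio of 0.770 (0.686 to 0.864, n = 4952 and 2636 peaks, adjusted p = 3.17e-05).

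AP-1 strings were found mostly in narrow lost peaks. The share was 37.7% of lost peaks of up to 599 bp, 22.7% at 799 to 1399 bp and 13.2% at 1599 bp or more. In retained peaks of the same widths it was 47.8%, 33.1% and 18.1%, higher each time. In gained peaks it was 43.6%, 23.8% and 13.0%, so lost and gained peaks were within counting error of each other above the narrowest class. In a setting chosen after seeing the data, the classes were kept as called and only peaks of at least 1000 bp were used. There the odds ratio against gained peaks was 0.879 (0.667 to 1.16, n = 2072 and 564 peaks, adjusted p = 0.881), while that against retained peaks was 0.581 (0.504 to 0.671). The former interval includes the 0.770 of all peaks.

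Forkhead strings were more common in lost peaks than in retained or gained peaks. Any of the 4 strings was present in 41.9% of lost, 30.5% of retained and 27.7% of gained peaks, and in 44.9% of the intergenic grid windows. Because these strings are rich in A and T, the fairer reference is grid windows at the GC content of lost peaks, of which 35.7% held one. The odds ratio was 1.24 against retained peaks (1.15 to 1.34, n = 4952 and 10246 peaks, adjusted p = 1.13e-07) and 1.43 against gained peaks (1.27 to 1.61, n = 2636 gained peaks, adjusted p = 3.31e-08). Neither held among peaks of at least 1000 bp, where the odds ratios were 0.968 (0.863 to 1.09) and 1.12 (0.867 to 1.45), both with an adjusted p of 0.881. Across the 4 strings together there was no peak of matches at the centre of lost peaks, with a density there 1.00 times that of the flanks. In the comparison sets the density dipped at the centre, to 0.856 times the flanks in retained and 0.646 times in gained peaks.

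The 4 forkhead strings behaved differently when taken one at a time, a split made after the values had been seen. Lost distal peaks inside genes were not part of this split. GTAAACA was in the central 500 bp of 11.97% of lost peaks (593 of 4952), against 6.46% of retained peaks, 6.90% of gained peaks and 6.73% of grid windows at the GC content of lost peaks. Its odds ratio was 1.70 against retained peaks (1.504 to 1.92, n = 4952 and 10246 peaks, adjusted p = 1.18e-16 over 10 fits) and 2.03 against gained peaks (1.67 to 2.46, adjusted p = 3.98e-12). GTAAATA followed, in 11.9% of lost and 6.75% of retained peaks, with odds ratios of 1.43 (1.27 to 1.62, n = 4952 and 10246 peaks, adjusted p = 1.65e-08) and 1.48 (1.21 to 1.81). The strings that start with A showed no such difference. The odds ratio against retained peaks was 1.00 for ATAAACA (0.899 to 1.12) and 0.955 for ATAAATA (0.863 to 1.06), and 16.6% of lost peaks held ATAAATA, as did 16.6% of grid windows of the same GC content.

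GTAAACA also gathered at the centres of lost peaks. Per 1000 lost peaks there were 32.1 and 30.7 matches in the central pair of 100 bp bins and 14.9 and 16.4 in the outermost bins, 1000 bp from the centre. The density in the central 400 bp was 1.75 times that at 600 to 1000 bp in lost peaks, 1.11 times in retained peaks and 1.04 times in gained peaks. The sequences near LUZP4 and PTH2R shown above were picked for a match near the centre, so they illustrate this position and are no evidence for it. The share with GTAAACA was highest, 17.9%, in lost peaks from 400 to under 800 bp and 7.09% in those of 1600 bp or more, and it was 12.7% in lost peaks with a GC content of 50% or more against 4.28% of such retained peaks.

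The GTAAACA difference came from peaks under 1000 bp. There the odds ratio against retained peaks was 2.30 (1.956 to 2.70, n = 2880 and 4525 peaks, adjusted p = 5.61e-23 over 8 fits), and the central density was 2.23 times that of the flanks. At 1000 bp or more it was 1.13 (0.929 to 1.37, n = 2072 and 5721 peaks, adjusted p = 0.224), with a density ratio of 1.09. Some matches lay in families of related sequence. In 60 lost peaks, 17 retained peaks and 2 gained peaks, GTAAACA sat in one of 6 strings of 17 bases that at least 5 lost peaks shared. These strings were chosen by their count in lost peaks, so their counts do not compare the classes. The most frequent 3 of these strings, with the motif in capitals, were as follows.
Shared by 18 lost and 5 retained peaks: acagtGTAAACAaagcc
Shared by 13 lost and 6 retained peaks: cttagGTAAACAaagca
Shared by 11 lost and 4 retained peaks: agtagGTAAACAaagca
With these 6 strings left out, the odds ratio against retained peaks was 1.49 (1.32 to 1.69, n = 4952 and 10246 peaks, adjusted p = 3.62e-10) and the density ratio 1.59. In windows with no repeated 31-base string it was 1.48 (1.26 to 1.74, n = 2714 and 5880 peaks, adjusted p = 2.32e-06) and the density ratio 1.63.

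**Figure D4:**
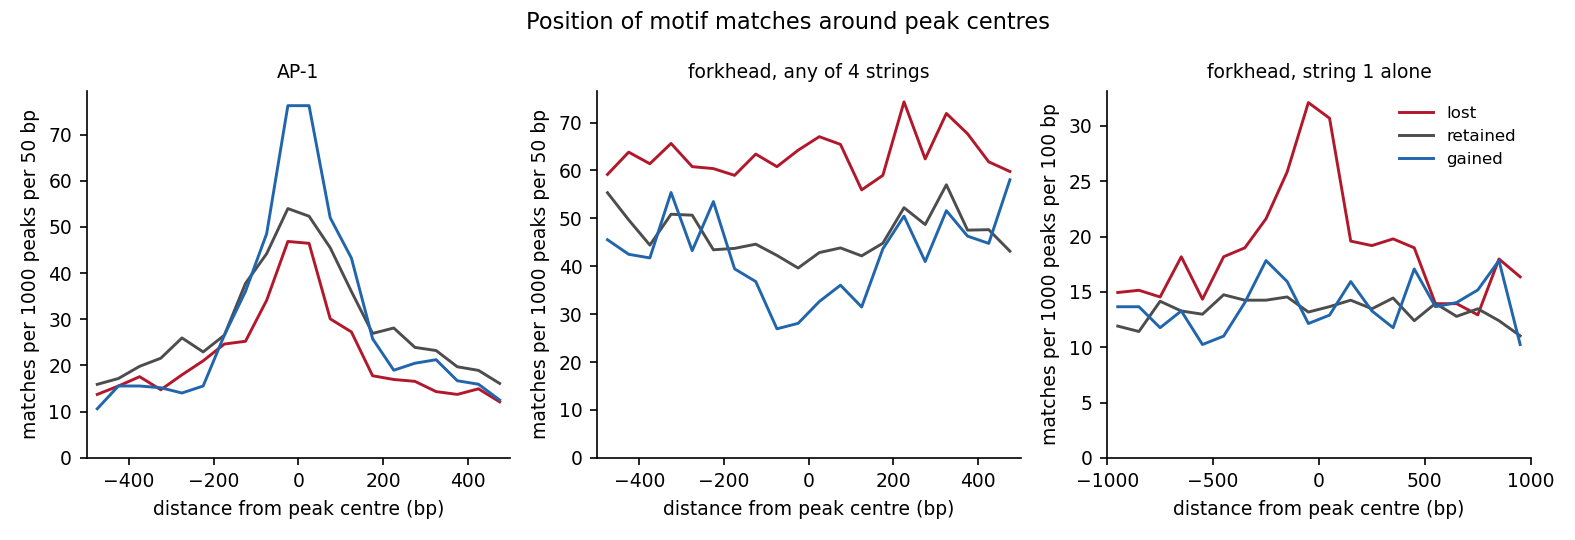
Matches per 1000 peaks against distance from the peak centre in bp, in 50 bp bins for AP-1 and any forkhead string and in 100 bp bins for forkhead string 1, GTAAACA, in lost (red), retained (grey) and gained (blue) peaks. AP-1 rose at the centre in all 3 classes, the forkhead strings together did not in lost peaks, and GTAAACA rose to 32.1 per 1000 at the centre of lost peaks, with no such rise in the other classes.

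The metal response element core, the motif MTF-1 itself is known for, was less common in lost than in retained peaks before adjustment for width and GC content. It was present in 29.0% of lost, 33.0% of retained and 29.7% of gained peaks, and in 33.8% of grid windows at the GC content of lost peaks. The odds ratio against retained peaks was 1.06 (0.978 to 1.14, n = 4952 and 10246 peaks, adjusted p = 0.282) and against gained peaks 1.20 (1.07 to 1.35, adjusted p = 0.00539), while without covariates these were 0.827 and 0.967, on the other side of 1. In the central 200 bp the ratio against gained peaks was 1.18 (1.003 to 1.38, n = 4952 and 2636 peaks, adjusted p = 0.102), no longer past the threshold. Matches were no denser at the centre than in the flanks, with a ratio of 0.935.

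TEAD strings, ACATTCC, were more frequent in lost peaks. They were present in 13.4% of lost, 10.6% of retained and 8.35% of gained peaks, against 7.07% of grid windows at the GC content of lost peaks. The odds ratio was 1.15 against retained peaks (1.03 to 1.27, n = 4952 and 10246 peaks, adjusted p = 0.0242) and 1.67 against gained peaks (1.405 to 1.98, adjusted p = 3.31e-08). The strings for RUNX (TGTGGTT), C/EBP (TTGC and AA with any pair of bases between them), ETS (CGGAAGT), CTCF (AGGGGGC) and a CA repeat of 10 units did not pass the threshold in either comparison. The smallest adjusted p among them was 0.0612, for RUNX against gained peaks, with an odds ratio of 1.18 (1.02 to 1.37). RUNX, C/EBP and CTCF passed it under some other settings, given with the dependence on processing.

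**Figure D5:**
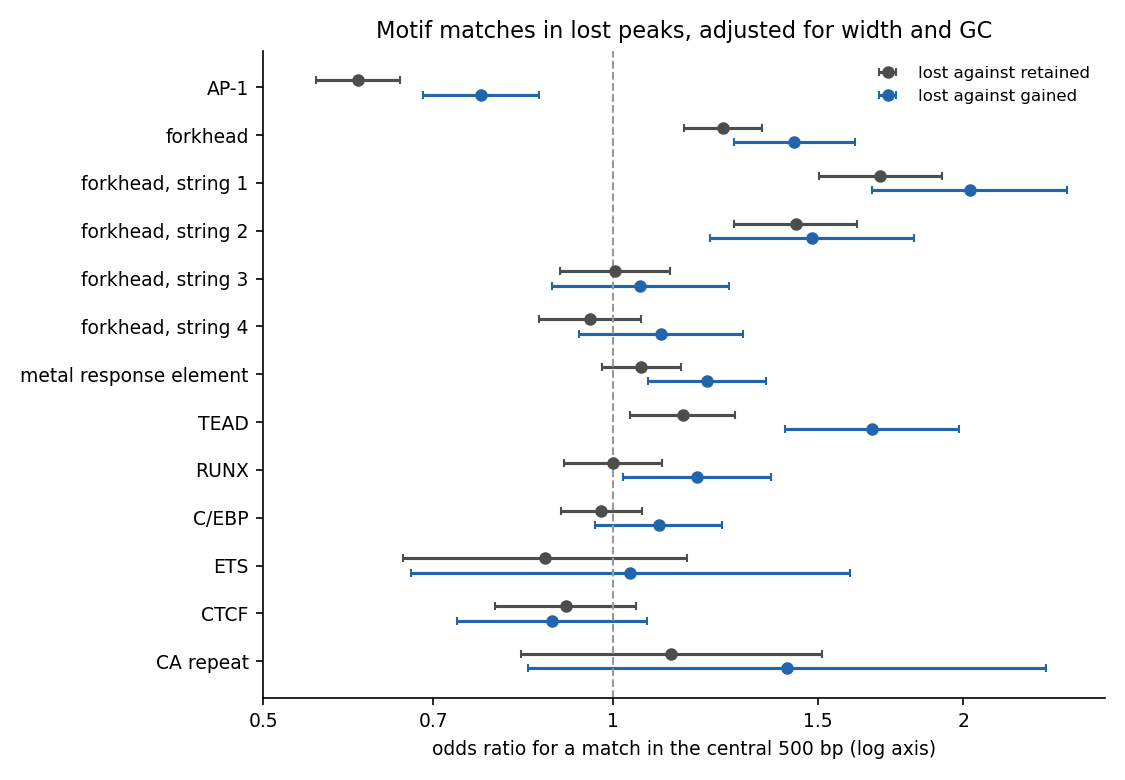
Odds ratio for a motif match in the central 500 bp of lost peaks against retained (grey) and gained (blue) peaks, adjusted for width and GC content, with 95% intervals on a log axis. Forkhead string 1 is GTAAACA, string 2 is GTAAATA, string 3 is ATAAACA and string 4 is ATAAATA. AP-1 lay below 1 at 0.604 and 0.770, and forkhead string 1 lay above it at 1.70 and 2.03.

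Of the 4952 lost peaks, 14.2% had AP-1 only, 30.1% a forkhead string only, 11.9% both and 43.9% neither, and 14.5% had none of the 9 motifs searched. None of the 9 motifs differed past the threshold between lost intergenic peaks and the 9311 lost distal peaks inside genes. AP-1 was in 25.7% and a forkhead string in 44.03% of the latter, and the odds ratios of intergenic against genic lost peaks were 1.05 (0.963 to 1.14) and 0.970 (0.900 to 1.05), with n = 4952 and 9311 peaks and adjusted p = 0.664 for both over 9 fits. The smallest adjusted p of these 9 was 0.621, for TEAD, at an odds ratio of 1.10 (0.992 to 1.22).

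Repeated sequence differed little. No 31-base string of the central 500 bp occurred elsewhere in the genome for 54.8% of lost and 57.4% of retained peaks, and at least 50% were repeated in 6.62% and 5.70%. The mean share of repeated strings was 11.03% and 10.03%, and with log2 width as covariate lost peaks were higher by 1.55 points (0.820 to 2.28, n = 4952 and 10246 peaks, p = 3.18e-05). The nearest start of any gene type belonged to a protein-coding gene for 32.5% of lost and 39.0% of retained peaks, to a long noncoding RNA for 31.8% and 30.6%, and to a pseudogene for 25.1% and 20.5%.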

How the data were processed

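MTF-1 CUT&RUN was analysed from 2 peak lists, 1 for control cells and 1 for cells in 10 µM cadmium. The authors used Bowtie2 to align the reads to hg38, pooled the 2 libraries of each condition and called broad peaks. The submitters' notes list SICER 0.0.50 and SAMtools 1.8, while the methods name Epic2. The deposited peak lists used here hold positions in base pairs on hg38, with no count or score, and reads and coverage were not analysed here. All peak starts were multiples of 200 bp. Starts and gene bodies came from GENCODE v44 and sequence from hg38. The members, gene lists and named genes were chosen with earlier results of these data known. The named genes were the 10 coding genes nearest to the most lost peaks, the 5 widest peaks, the 3 longest runs, up to 3 leading genes of each list and the peaks with the most motif matches, and other names were chosen after their values were seen. The genome file carried no repeat masking, so 31-base strings occurring more than once in the genome took its place.

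Motif presence in the central 500 bp was fitted by logistic regression (statsmodels 0.14.6) on class, log2 width, GC content and its square, with standard errors clustered by 1 Mb window and two-sided p-values at a threshold of 0.05. Wilson intervals came from scipy 1.17.1 and sequence from pysam 0.24.0. Alternatives changed the window, covariates, overlap rule, minimum width and annotation. The fits were tested on simulated data. Expression and accessibility were not analysed here, and some items are not reported here.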

Additional observations from a re-analysis of the deposited data

How the results depend on the processing

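The depth of the libraries is unknown. No paired analysis was possible because each peak list used here joins the replicates of its condition, and no library was left out in turn for the same reason. Single libraries were not analysed here. The repeat-masked share was not run, since the genome file carries no masking.

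Counting control peaks with under 50% of their bases covered as lost raised the number of lost peaks from 4952 to 7882 and their share from 32.6% to 51.9%, and the metal response element odds ratio against retained peaks then passed the threshold at 1.14. Keeping only peaks of at least 1000 bp in both lists gave a share of 54.4% and 67.1% of coding genes with a lost peak. Forkhead odds ratios fell to 1.01 against retained and 1.19 against gained peaks, and the AP-1 odds ratio against gained peaks rose to 0.969, none past the threshold. With the classes kept as called, an alternative chosen after seeing the data, the same 3 were 0.968, 1.12 and 0.879, the first on the other side of 1. Using protein-coding starts and genes only gave a share of 28.8%, and assigning peaks to the nearest gene of any type gave 37.4% of coding genes with a lost peak. Without covariates, odds ratios changed side for the metal response element against retained (0.827) and gained peaks (0.967), for RUNX against retained peaks (1.19) and for C/EBP against retained peaks (1.16), the latter pair past the threshold. Past the threshold under an alternative but not in the reported fits were RUNX against gained peaks in the central 200 bp (1.35) and without covariates (1.19), C/EBP against gained peaks without covariates (1.32), and CTCF without covariates against retained (0.648) and gained peaks (0.560). In the central 200 bp the metal response element ratio against gained peaks was 1.18 and lost its call. Odds ratios were not tested for a difference between peak widths, and the causes of these changes were not tested. The AP-1 odds ratio against retained peaks stayed below 1 and past the threshold under every alternative run.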
